A study of Mus musculus with 4 samples.

Results

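The hypoxia response outside glycolysis was followed through 36 genes, chosen by name and found in full among the 45777 genes of the deposited table. They comprise 4 subunits of the hypoxia-inducible factors (HIFs), 5 regulators of HIF turnover and 27 genes known to respond to low oxygen. RNA sequencing had been done on poly(A) RNA from 4 cultures of myotubes, the multinucleate muscle cells formed by the C2C12 mouse myoblast line in medium with 2% horse serum. The study set out to compare 2 in vitro models of exercise. In the first, myotubes received EPS, taken here to mean electrical pulse stimulation. In the second they received clenbuterol, an agonist of β2-adrenergic receptors. A separate control culture accompanied each treatment, giving 4 groups of 1 library. The treatment field lists 30 ng/ml clenbuterol for all 4 libraries, controls included, and the series title speaks of adrenaline, so groups rest on the sample titles. Not given in the sources used here were pulse settings, treatment times and oxygen tension. All 4 groups share 1 cell line, and no genotype or strain differs between them.

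Sample titles and data names disagree for EPS: the data named EPS belong to the record titled as its control, and the reverse. They are named here by title, as the EPS-titled and the EPS-control-titled library, and every direction between them is inverted should the data names hold. Together they form the EPS pair, and the clenbuterol library and its control form the clenbuterol pair. A comparison of one pair with the other does not depend on which EPS name is right. It does not isolate a treatment, because each pair holds a treated and a control culture, and whatever differed between the 2 sets of cultures cannot be told apart from pair membership.

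Estimated counts summed to between 32640884 and 35597074 per library. Of 18 myotube markers all were measured, and their summed TPM (transcript abundance scaled for transcript length and library size) was 24411 and 28999 in the EPS-titled and EPS-control-titled libraries against 36037 and 35870 with clenbuterol and in its control. Of 15 markers of other cell types, 8 were listed at 0 in every library, Ptprc, Adgre1 and Adipoq among them. Only Cd68 and Bglap reached a TPM of 1. Cd68 stood at 4.70 and 3.29 TPM in the EPS-titled and EPS-control-titled libraries, 2.79 with clenbuterol and 4.88 in its control. Bglap stood at 9.43, 7.52, 12.1 and 12.8 TPM in that order. In bulk RNA, fewer cells of a type and less RNA per cell cannot be told apart. A gene counted as measured in a comparison when its TPM reached 1 in at least 1 of the libraries compared. It counted as higher or lower when TPM plus 1 differed by at least 1.5-fold, with 2-fold as a second level. With no replicate in any group, differences are described by size. The 95% intervals in parentheses are exact Clopper-Pearson intervals on ratios of CPM, counts scaled to library totals without regard to length, and cover counting error only.

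Cells sense oxygen through enzymes that hydroxylate the HIF α subunits. With oxygen present, the prolyl hydroxylases encoded by Egln1, Egln2 and Egln3 mark the α subunit for the VHL ubiquitin ligase, which sends it to the proteasome, and the asparaginyl hydroxylase encoded by Hif1an blocks its coactivators. When oxygen is short the α subunit escapes, pairs with ARNT and binds the hypoxia response element, whose core reads ACGTG or GCGTG. HIF activity is therefore set mostly at the protein level, which RNA does not show, and its transcriptional targets are the usual readout. Egln1 and Egln3 are themselves targets and so close a feedback loop. In muscle, exercise lowers the oxygen tension in the fibre, and HIF targets adjust matrix, mitochondria, acid-base balance and vessel growth.

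Promoter sequence is shown for the members that differed most between the pairs. These are the genes at least 2-fold higher in TPM plus 1 in both EPS-pair libraries than in both clenbuterol-pair libraries, where a promoter with a response element core was on file. Each run is the 250 bases that end just before an annotated transcript start, from RefSeq on GRCm38.p6, read 5′ to 3′ along the gene. For Bnip3, Fam162a, Car9 and Ero1l that start is the outer end of the annotated gene, while the windows of Ankrd37 and Ak4 lie inside the outermost gene coordinates. Capitals mark the cores ACGTG and GCGTG on either strand, so that CACGT and CACGC are the same cores on the other strand.
Ero1l, chr14:45318573-45318822, minus strand: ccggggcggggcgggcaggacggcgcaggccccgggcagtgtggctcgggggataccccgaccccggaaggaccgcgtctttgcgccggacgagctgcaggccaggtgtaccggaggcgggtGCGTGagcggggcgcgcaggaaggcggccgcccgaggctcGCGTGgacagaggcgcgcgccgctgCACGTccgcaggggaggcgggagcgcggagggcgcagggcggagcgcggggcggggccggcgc
Ak4, chr4:101419039-101419288, plus strand: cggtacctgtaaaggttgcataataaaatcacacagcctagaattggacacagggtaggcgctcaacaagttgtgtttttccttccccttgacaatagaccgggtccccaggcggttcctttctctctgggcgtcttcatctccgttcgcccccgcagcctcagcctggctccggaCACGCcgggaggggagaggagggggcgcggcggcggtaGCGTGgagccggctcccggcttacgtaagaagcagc
Car9, chr4:43506776-43507025, plus strand: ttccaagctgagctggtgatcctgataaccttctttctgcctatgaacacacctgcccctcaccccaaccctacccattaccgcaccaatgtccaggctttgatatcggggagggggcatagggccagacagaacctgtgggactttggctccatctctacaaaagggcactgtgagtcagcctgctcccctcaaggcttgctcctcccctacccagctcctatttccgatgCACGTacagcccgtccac
Bnip3, chr7:138909507-138909756, minus strand: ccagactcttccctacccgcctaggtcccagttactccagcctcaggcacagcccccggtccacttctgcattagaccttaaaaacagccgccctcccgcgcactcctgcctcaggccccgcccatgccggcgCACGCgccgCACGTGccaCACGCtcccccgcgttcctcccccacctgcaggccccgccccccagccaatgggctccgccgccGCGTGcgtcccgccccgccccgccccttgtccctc
Ankrd37, chr8:45999851-46000100, minus strand: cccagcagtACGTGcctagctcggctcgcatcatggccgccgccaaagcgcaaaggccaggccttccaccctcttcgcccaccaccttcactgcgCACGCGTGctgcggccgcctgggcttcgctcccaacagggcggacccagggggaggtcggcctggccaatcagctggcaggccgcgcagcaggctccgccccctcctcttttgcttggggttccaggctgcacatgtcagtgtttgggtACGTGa
Fam162a, chr16:36071562-36071811, minus strand: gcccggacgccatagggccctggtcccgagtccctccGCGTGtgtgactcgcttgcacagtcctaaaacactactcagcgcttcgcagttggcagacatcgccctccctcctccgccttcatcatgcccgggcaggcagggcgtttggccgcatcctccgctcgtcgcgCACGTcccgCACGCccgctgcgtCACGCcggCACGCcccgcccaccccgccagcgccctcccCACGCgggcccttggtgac

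Within these windows Fam162a held 6 cores, Bnip3 and Ankrd37 4 each, Ero1l 3, Ak4 2 and Car9 1. One of the Bnip3 cores lies in CACGTG, the palindrome that E-box factors also read, and was counted as 1 core. In Ankrd37, CACGCGTG holds 2 overlapping cores, 1 per strand. The last core of Car9, the gene of carbonic anhydrase 9, begins 18 bases before the transcript start, and the last core of Ankrd37 begins 6 bases before its own. Ak4 has 4 annotated windows, of which the first with the most cores is shown. A window was on file for 28 of the 36 members, and 24 of them (85.7%) held a core, against 60.6% of 10262 genes with a TPM of at least 1. At least 2 cores stood in 1 window for 16 members (57.1%) and for 27.3% of those genes. Among the 13 members with a window that were at least 1.5-fold higher in the EPS pair, 11 held a core (84.6%). Among the other 14 measured members with a window, 12 did (85.7%). At least 2 cores in 1 window were found in 9 of the 13 (69.2%) and in 6 of the 14 (42.9%). Car12 had a window with no core although it differed strongly, and Egln2 had 4 cores in a window and differed little. The full cyclic AMP response element TGACGTCA stood in the windows of Arnt, Mif and Wsb1, 3 of 28 members (10.7%), against 3.03% of genes with a TPM of at least 1. No window was on file for Epas1, Plod2, Lox, Loxl2, Bnip3l, Ndufa4l2, Bhlhe40 and Ndrg1. A match of letters describes the sequence and is not evidence of binding.

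Levels of the 36 members ranged from 0 to 1053 TPM, a scale that divides by transcript length and so allows genes to be compared. Mif, which encodes the cytokine macrophage migration inhibitory factor, was the most abundant, with 1049.9 TPM in the EPS-titled library and 1053 in the EPS-control-titled library, 527 with clenbuterol and 523 in its control. Lox, the lysyl oxidase gene, followed with 703, 905, 406 and 458 TPM in the same order. Epas1, Hif3a and Ndufa4l2 stayed below a TPM of 1 in all 4 libraries and 33 members were measured. The TPM of all 36 members summed to 5312 in the EPS-titled library, 5994 in the EPS-control-titled library, 3389 with clenbuterol and 3217 in the clenbuterol control. Among the 33 measured members, the EPS-control-titled library was the highest of the 4 for 19, and the clenbuterol control was the lowest for 18.

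**Figure D1:**
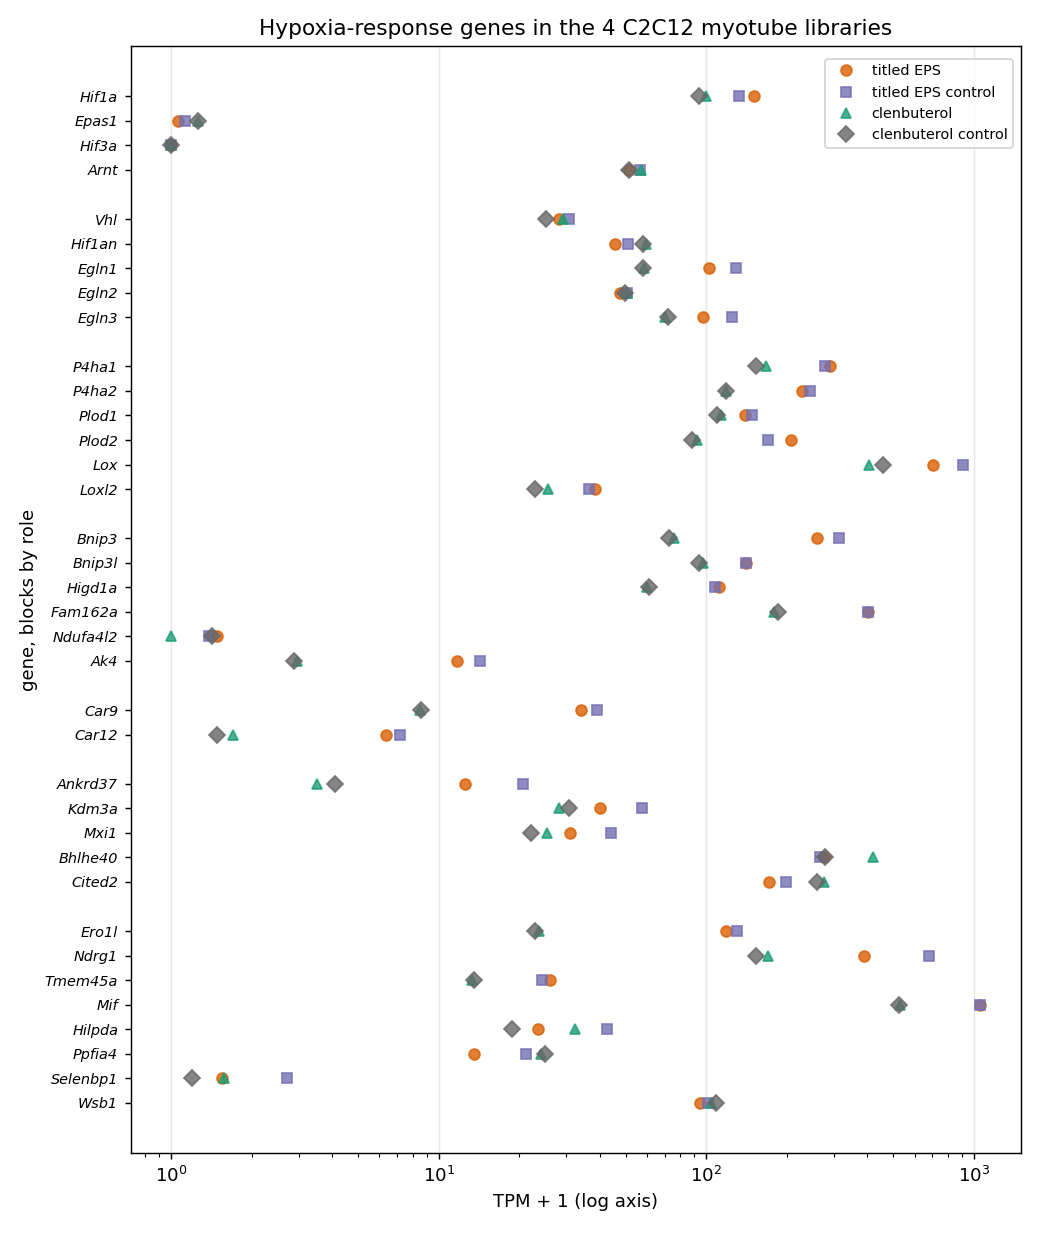
TPM plus 1 on a log axis for all 36 hypoxia-response genes, in blocks by role, with 1 symbol per library. For Ero1l, Bnip3, Ak4, Car9 and Car12 the circle and square of the EPS pair stand well to the right of the triangle and diamond of the clenbuterol pair, while Arnt, Egln2 and Wsb1 show 4 symbols nearly on top of each other.

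The clearest pattern in these genes lay between the 2 pairs of cultures. Of the 33 measured members, 16 were at least 1.5-fold higher in both EPS-pair libraries than in both clenbuterol-pair libraries and 0 were lower by that much. Over 14213 genes tested the corresponding shares were 1.84% higher and 1.45% lower. Leaving out 1 library in turn raised the share of all genes higher to between 3.03% and 4.38%, with 16 to 20 members higher. At 2-fold the members numbered 8 higher and 0 lower, against 0.352% and 0.204% of all genes. Without any minimum size, 23 members stood above with no overlap between the pairs, 5 stood below and 5 overlapped, against 34.7% of all genes above and 25.1% below. The median difference between pair means was 0.71 on the log2 scale for the measured members and 0.04 for all genes. The same 16 members passed 1.5-fold under each of the 8 other scalings, filters and pseudocounts tried. Car12 counts as measured only through the EPS pair, where it is high, and Selenbp1 only through the EPS-control-titled library. Without these 2 genes, 15 of 31 members were higher at 1.5-fold and 7 at 2-fold. The count of 0 lower changed when a library titled as a control was left out. Without the EPS-control-titled library 2 members were lower by 1.5-fold (Cited2 and Ppfia4), and without the clenbuterol control 1 was (Bhlhe40). Just inside the threshold stood Lox (1.53-fold in TPM plus 1) and P4ha1 (1.66-fold), and just outside it Bnip3l (1.45-fold) and Loxl2 (1.42-fold).

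**Figure D2:**
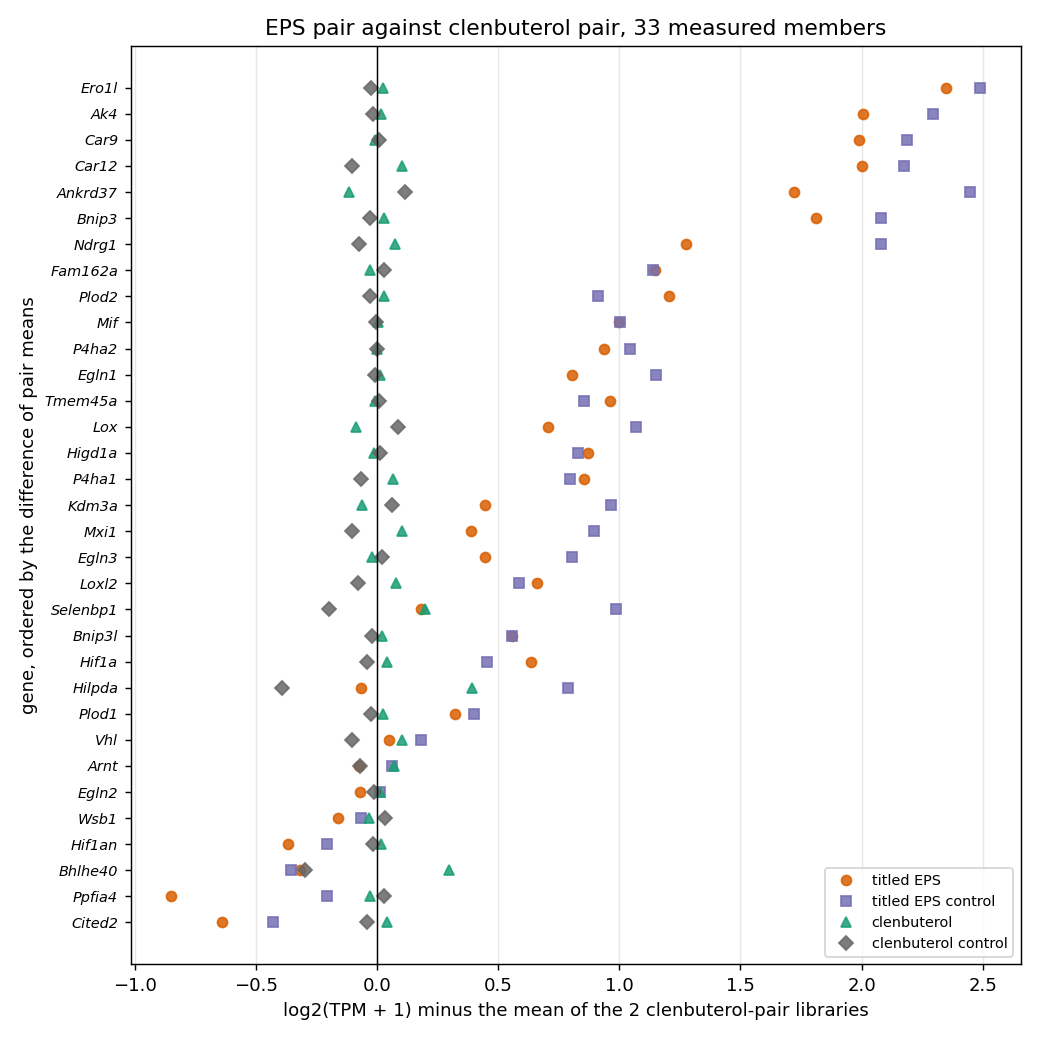
For each of the 33 measured members, log2 of TPM plus 1 in each library minus the mean of the 2 clenbuterol-pair libraries, with genes ordered by the difference of the pair means. From Ero1l at the top down to P4ha1 the 2 EPS-pair symbols lie to the right of both clenbuterol-pair symbols by at least 1.5-fold, and Cited2 at the bottom lies to the left.

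Of the HIF subunits, neither Hif1a nor Arnt reached the 1.5-fold threshold between the pairs. Hif1a, the oxygen-regulated α subunit of HIF-1, had 149 TPM in the EPS-titled library and 131 in the EPS-control-titled library, against 98.6 with clenbuterol and 93.1 in its control. Both EPS-pair libraries were above both others, the nearest of them by 1.25-fold in CPM (1.21 to 1.29). Its partner Arnt overlapped between the pairs, at 50.4, 55.4, 55.8 and 50.5 TPM in that order. Epas1, the α subunit of HIF-2, which is prominent in vessels, had 6, 10, 20 and 21 counts in the EPS-titled, EPS-control-titled, clenbuterol and clenbuterol control libraries. Hif3a had 0 counts in every library, which allows a level of up to 0.0830 to 0.0921 CPM on a floor of 3 counts per library.

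Among the regulators of HIF turnover, the 2 hydroxylase genes known as HIF targets stood apart from the others. Egln1, the main HIF prolyl hydroxylase gene, had 101 TPM in the EPS-titled library and 128 in the EPS-control-titled library, against 57.7 with clenbuterol and 56.9 in its control. The EPS pair was higher with no overlap, and its lower library exceeded the higher one of the other pair by 1.72-fold in CPM (1.64 to 1.80). Egln3 stood at 95.9, 123, 69.2 and 71.2 TPM in the same order, higher in the EPS pair by 1.34-fold (1.28 to 1.41). Egln2, by contrast, was level at 46.6, 49.4, 49.4 and 48.6 TPM. Vhl, which encodes the substrate-binding part of the ligase, ranged from 24.2 to 29.8 TPM and overlapped between the pairs. Hif1an was lower in the EPS pair, at 44.4 and 49.8 TPM against 58.2 and 56.9, by 1.18-fold in CPM (1.13 to 1.23).

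All 6 collagen and matrix genes were higher in the EPS pair with no overlap, against 34.7% of all genes. Of the 6, 4 were higher by at least 1.5-fold, against 1.84% of all genes. P4ha1 and P4ha2 encode α subunits of the prolyl 4-hydroxylase that stabilises the collagen helix. P4ha1 had 289, 277, 167 and 152 TPM in the EPS-titled, EPS-control-titled, clenbuterol and clenbuterol control libraries. P4ha2 had 226, 244, 118 and 118. For both genes the EPS pair was higher with no overlap, and the nearest libraries differed by 1.60-fold (1.56 to 1.64) and 1.88-fold (1.81 to 1.96) in CPM. Plod2, the lysyl hydroxylase that acts on collagen telopeptides, was at 207 and 169 TPM against 91.0 and 87.5, a gap of 1.76-fold (1.70 to 1.83). Lox, whose product cross-links collagen and elastin, differed by 1.53-fold between the nearest libraries (1.51 to 1.56). Plod1, at 139, 146, 113 and 109 TPM, and Loxl2, at 37.4, 35.4, 24.6 and 22.0, showed the same order with smaller gaps of 1.21-fold (1.17 to 1.25) and 1.37-fold (1.29 to 1.46).

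Genes of mitochondria and mitophagy included 3 of the 8 members past 2-fold. Bnip3, a receptor that marks mitochondria for autophagy, had 259 TPM in the EPS-titled library and 312 in the EPS-control-titled library, against 74.6 with clenbuterol and 71.6 in its control. The nearest libraries differed by 3.41-fold in CPM (3.24 to 3.59). Bnip3l, which encodes the related receptor NIX, differed less, at 139.7, 139.9, 96.1 and 93.2 TPM. Ak4, a mitochondrial adenylate kinase gene, was weakly expressed at 10.7, 13.3, 1.95 and 1.88 TPM, on 814, 910, 139 and 129 counts. Its gap was 5.27-fold in CPM (4.40 to 6.36) and 3.97-fold in TPM plus 1, since the pseudocount shrinks ratios at such levels. Fam162a, which encodes a mitochondrial protein linked to cell death under hypoxia, was at 402 and 399.9 TPM against 177 and 185. Higd1a, a modulator of the respiratory chain, was at 110.2 and 107 TPM against 59.2 and 60.3. For Fam162a and Higd1a each pair was tight and the pairs lay 2.10-fold (1.98 to 2.22) and 1.72-fold (1.61 to 1.84) apart in CPM. Ndufa4l2, an inhibitor of complex I, had 8, 5, 0 and 6 counts.

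The 2 carbonic anhydrases that act on pH outside the cell both passed 2-fold, Car12 with the limit on its filter given above. Car9, a classic HIF-1 target, had 33.0, 38.0, 7.50 and 7.61 TPM in the EPS-titled, EPS-control-titled, clenbuterol and clenbuterol control libraries. Car12 had 5.36, 6.17, 0.706 and 0.478 TPM, on 310, 314, 52 and 36 counts. In both genes the EPS pair was far above the other, by 4.30-fold for Car9 (3.71 to 5.01) and 5.37-fold for Car12 (3.99 to 7.35) in CPM between the nearest libraries. Tpm2, a tropomyosin gene on the opposite strand, overlaps Car9 and stood at 1125, 1449, 1484 and 1505 TPM in the same order of libraries. Arhgef39, also opposite to Car9, stood at 4.88, 4.92, 2.24 and 1.38 TPM, higher in the EPS pair as Car9 was. The kit kept strand, but the sources used here do not say whether the counting used it.

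The 5 members that act in transcription and chromatin did not move as a block. Ankrd37, a small ankyrin-repeat gene strongly induced by HIF-1, was at 11.5 TPM in the EPS-titled library and 19.7 in the EPS-control-titled library against 2.50 and 3.10 in the clenbuterol pair, a gap of 3.44-fold in CPM (2.46 to 4.89). It rests on 167, 262, 33 and 45 counts and overlaps Ufsp2 on the opposite strand, which ranged only from 46.3 to 60.8 TPM. Kdm3a, a histone H3 lysine 9 demethylase gene, had 39.1, 56.5, 27.2 and 29.7 TPM, and Mxi1, which encodes a MAX-binding antagonist of MYC, 30.0, 43.1, 24.5 and 21.1. Both stood above in the EPS pair, mainly through the EPS-control-titled library. Cited2, whose product competes with HIF-1α for its coactivators, lay the other way at 171 and 197 TPM against 274 and 259, 1.35-fold lower in the EPS pair by CPM (1.31 to 1.40).

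Of the remaining 8 members, Ero1l had the widest gap of the whole set in TPM plus 1, while Car12 and Ak4 had wider ones in CPM. It encodes an oxidase that forms disulphide bonds in the endoplasmic reticulum, and it had 118 TPM in the EPS-titled library and 129.6 in the EPS-control-titled library, against 22.7 with clenbuterol and 21.8 in its control. The counts were 8104, 7862, 1437 and 1403, and the nearest libraries differed by 5.08-fold in CPM (4.80 to 5.38). Ndrg1, a stress-responsive gene named for its repression by N-myc, was at 389 and 679.7 TPM against 169 and 152, a gap of 2.26-fold (2.20 to 2.33). Mif was 1.91-fold higher in CPM between the nearest libraries (1.84 to 1.98), with each pair nearly level within itself. Its 5 listed pseudogenes reached at most 0.270 TPM. Tmem45a was at 25.1 and 23.2 TPM against 12.3 and 12.5. Wsb1 and Ppfia4 lay on the other side: Wsb1 had 94.0, 100.4, 103 and 108 TPM and Ppfia4, a liprin gene, 12.6, 20.2, 23.0 and 23.9. Hilpda and Selenbp1 overlapped between the pairs.

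Other HIF-responsive genes, in lists that hold none of the 36 members, showed part of the same pattern. Of 20 glycolysis genes, all measured, 8 were at least 1.5-fold higher in the EPS pair and 0 lower, with a median difference of 0.46. Over all genes the shares at 1.5-fold were 1.84% higher and 1.45% lower. Slc2a1, the glucose transporter GLUT1, had the largest difference of pair means (1.49 on the log2 scale), and Hk2 overlapped. Of 10 measured secreted and vascular genes 3 were higher, and Adm, the adrenomedullin gene, had the largest difference of means (1.76). Of 17 genes of iron, haem and other functions 2 were higher and 0 lower. The 7 genes of the VHL ligase and HIF coactivators, held 0 higher and 0 lower at 1.5-fold, with a median of 0.02.

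Muscle markers moved with the pairs as well. Of the 18 myotube markers, 17 stood below in the EPS pair with no overlap and 1 overlapped, against 25.1% of all genes below. At 1.5-fold 1 was lower, against 1.45% of all genes, and the median difference was −0.50. Of the 10 markers of undifferentiated myoblasts 6 stood above with no overlap, 3 below and 1 overlapped. Over all genes 34.7% stood above and 25.1% below. Those above were Myf5, Mki67, Top2a, Ccnb1, Cdk1 and Pcna, by 1.05-fold (Pcna) to 1.41-fold (Mki67) in TPM plus 1. Those below were Id1, Id3 and Hey1, all by at least 1.5-fold, and Hey1 was measured only through the clenbuterol pair. With clenbuterol Id3 and Hey1 were 3.27-fold and 5.99-fold higher in CPM. Summed TPM of the 10 was 487 and 424 in the EPS pair against 492 and 415. The part of these marker differences in the gap of the hypoxia genes was not tested. Ero1l, Car9, Bnip3 and Ak4, picked for their wide gaps, were also compared between the 2 libraries titled as controls alone. The EPS side was higher by 5.76-fold, 4.83-fold, 4.23-fold and 7.25-fold in CPM, in that order. Between the EPS-titled and the clenbuterol library it was higher by 5.08-fold, 4.30-fold, 3.41-fold and 5.27-fold. These are the gaps between the nearest libraries given above, and no contrast across the pairs could be smaller for these genes. Both contrasts depend on the EPS titles. Should the data names hold, the first sets the stimulated culture against the clenbuterol control.

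**Figure D3:**
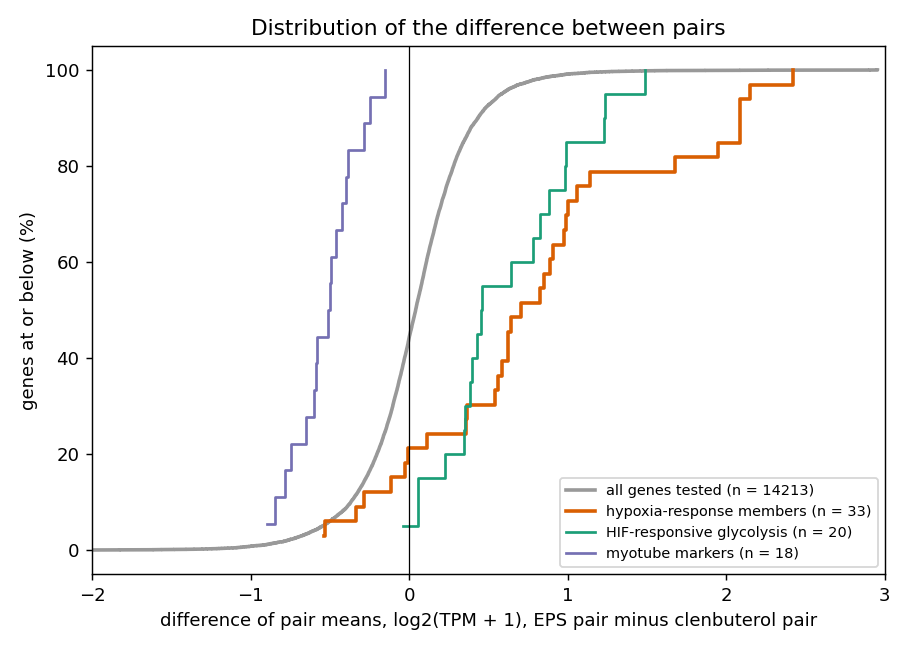
Cumulative share of genes against the difference of pair means in log2 of TPM plus 1, EPS pair minus clenbuterol pair, with the axis limited to the range shown. The curve of the 33 measured hypoxia-response genes has its median at 0.71 and that of the 20 glycolysis genes at 0.46, right of all 14213 genes at 0.04, and the 18 myotube markers lie left of 0.

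Within the EPS pair, the members were lower in the EPS-titled library more often than higher, and 5 passed 1.5-fold. Of 33 measured members 25 had a ratio below 0 and 8 above, while 7548 of 13828 genes tested were below 0. At least 1.5-fold, 5 members were lower and 0 higher, against 4.24% and 2.34% of all genes, and none passed 2-fold, where the shares of all genes were 1.14% and 0.868%. The median log2 ratio was −0.14 for the members and −0.02 for all genes. If the data names hold, these 5 genes were higher under EPS.

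Hilpda, which encodes a lipid droplet protein that slows fat breakdown under hypoxia, had 22.5 TPM in the EPS-titled library and 41.5 in the EPS-control-titled library, 1.83-fold lower in CPM (1.60 to 2.10). Ankrd37 was 1.74-fold lower (1.43 to 2.12) and Ndrg1 1.70-fold lower (1.67 to 1.74), so that these 2 genes differed both within the EPS pair and between the pairs. Ppfia4 was 1.49-fold lower in CPM (1.39 to 1.60) and 1.56-fold in TPM plus 1, and so passed the threshold in TPM but not in CPM. Selenbp1, a methanethiol oxidase gene, was 2.95-fold lower (1.60 to 5.76) on 15 against 40 counts. It reached a TPM of 1 only in the EPS-control-titled library, and without it 4 of 32 members were lower. Its near copy Selenbp2 drew 11 counts over all 4 libraries. Kdm3a and Mxi1 stood just outside, at 1.43-fold and 1.42-fold lower in TPM plus 1.

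By role, the EPS difference was uneven. All 5 regulators of HIF turnover were lower in TPM, Egln1 by 1.24-fold (1.20 to 1.29) and Egln3 by 1.25-fold (1.20 to 1.31) in CPM, while the intervals for Egln2 (0.964 to 1.12) and Vhl (0.988 to 1.17) included 1. Collagen genes were split. Lox was 1.26-fold lower (1.24 to 1.27) and Plod2 1.24-fold higher (1.20 to 1.27). Hif1a was 1.18-fold higher in CPM (1.14 to 1.21) and Bnip3 1.17-fold lower (1.14 to 1.21). Mif, Fam162a, Higd1a and Bnip3l, which differed between the pairs, were within 1.06-fold of equality in CPM here. Ero1l, which also differed between the pairs, was 1.07-fold lower in CPM (1.04 to 1.11). Bhlhe40 and Tmem45a were the highest of their roles, at log2 ratios of 0.04 and 0.11 in TPM plus 1.

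Among other HIF-responsive genes, the lists of glycolysis and of iron, haem and other functions shared this direction by title. Of 20 glycolysis genes 4 were lower by at least 1.5-fold and 0 higher, with a median of −0.22 and Slc2a1 lowest at −0.94. For this and the next 2 lists, the shares of all genes at 1.5-fold were 4.24% lower and 2.34% higher. Of 17 genes of iron, haem and other functions 6 were lower and 1 higher. Hmox1, the haem oxygenase gene, was lowest there at −2.46, and Tfrc, the transferrin receptor gene, highest at 0.97. Of 10 secreted and vascular genes 1 was lower and 1 higher, with a median of −0.04 beside −0.02 for all genes. Of 18 myotube markers 17 had ratios below 0, against 7548 of 13828 genes tested, with a median of −0.28. The part of the myotube markers in the difference of the hypoxia genes was not tested.

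**Figure D4:**
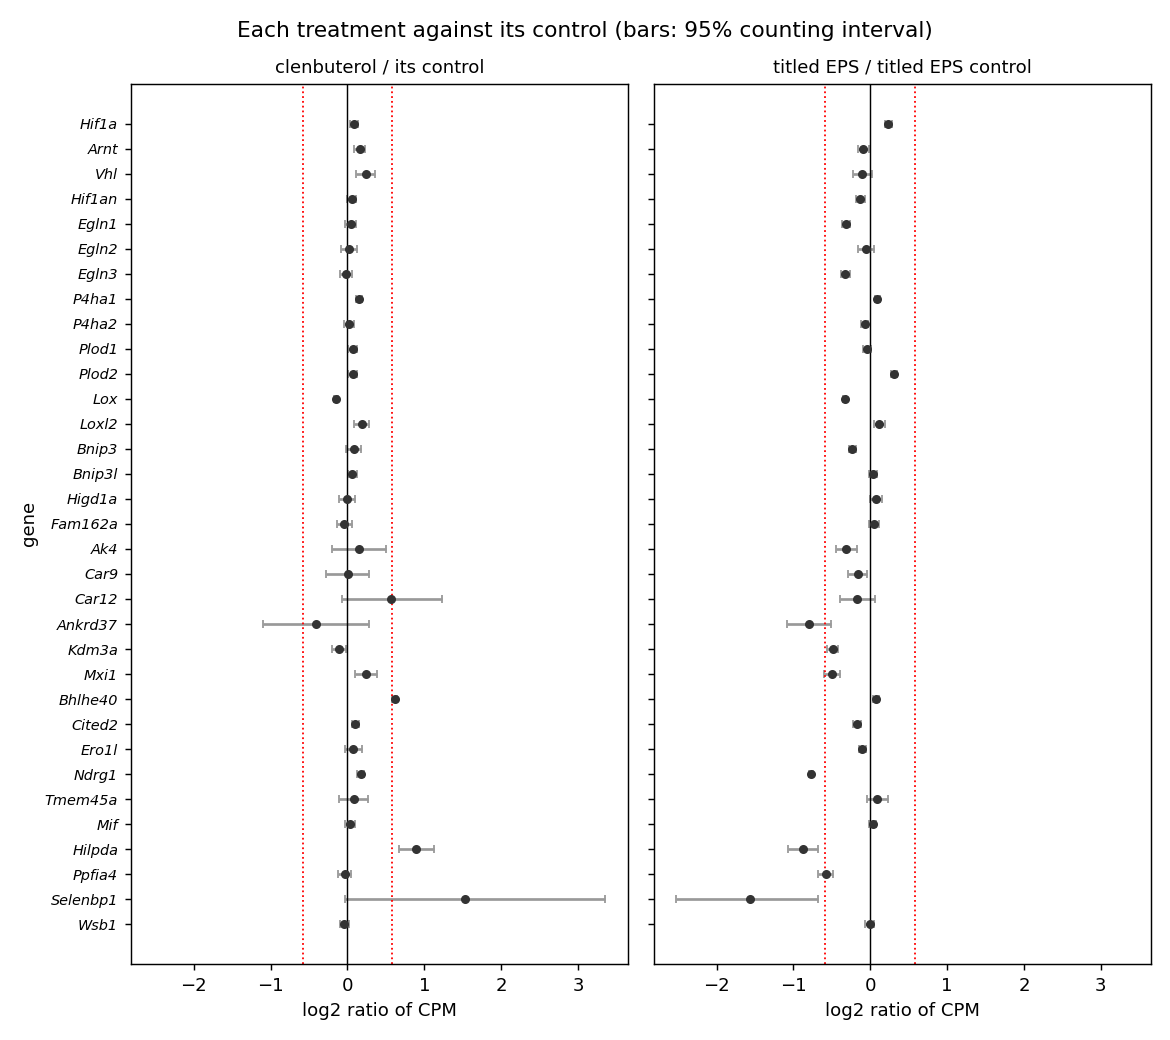
Log2 ratio of CPM for the 33 members with a TPM of at least 1 in any library, clenbuterol against its control on the left and the EPS-titled against the EPS-control-titled library on the right, with 95% counting intervals as bars and dotted lines at 1.5-fold. On the left only Bhlhe40, Hilpda and the sparsely counted Selenbp1 lie beyond a line, and on the right Ankrd37, Ndrg1, Hilpda and Selenbp1 do.

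With clenbuterol, nearly all hypoxia-response genes were level with the control, and Hilpda and Bhlhe40 were the exceptions. Of 31 measured members 2 were at least 1.5-fold higher and 0 lower, against 2.52% and 1.92% of 13788 genes, and none passed 2-fold, where the shares were 1.00% and 0.515%. In CPM, all genes split into 179 higher and 79 lower at 1.5-fold, where TPM gave 347 and 265. The median log2 ratio of the members was 0.04 and that of all genes −0.01. Car12 and Selenbp1 joined the 3 unmeasured members here, with at most 52 and 14 counts.

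Hilpda had 31.3 TPM with clenbuterol and 17.7 in the control, on 443 and 245 counts, and was 1.86-fold higher in CPM (1.59 to 2.18). It was the only member past 1.5-fold in both treatment comparisons, higher with clenbuterol and lower in the EPS-titled library. Bhlhe40, which encodes the clock-linked repressor DEC1 and responds to many signals besides hypoxia, had 418 TPM with clenbuterol and 277 in the control. The other 2 libraries stood at 273 and 266, so that the clenbuterol library was the one apart, and the difference was 1.53-fold in CPM, on 18656 against 12547 counts. In TPM plus 1 it was 1.51-fold, just past the threshold, and the call was lost in FPKM and with plain library totals. The members next in size were Ankrd37 (1.17-fold lower in TPM plus 1) and Vhl (1.16-fold higher).

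Of the 8 members past 2-fold between the pairs, 6 were within 1.13-fold of the control in CPM. Ero1l was 1.05-fold higher (0.979 to 1.14), Bnip3 1.06-fold (0.990 to 1.13), Car9 1.00-fold (0.824 to 1.22) and Ak4 1.11-fold (0.866 to 1.42), all with intervals that include 1. Fam162a was 1.03-fold lower (0.962 to 1.10). Ndrg1 was 1.13-fold higher (1.09 to 1.16), with an interval that excludes 1. Car12, not measured here by the TPM filter, had a CPM ratio of 1.49 (0.954 to 2.34), and Ankrd37 was 1.32-fold lower (0.827 to 2.14). The 7 measured genes of HIF subunits and turnover lay between 0.985-fold (Egln3) and 1.18-fold (Vhl) of the control in CPM. Among matrix genes Lox was 1.11-fold lower (1.09 to 1.13) and P4ha1 1.11-fold higher (1.08 to 1.14). Of the other HIF-responsive lists, 1 of 19 measured glycolysis genes was at least 1.5-fold higher (Hk2) and 0 lower. Beside this and the next 2 lists, 2.52% of all genes were higher and 1.92% lower at 1.5-fold. Vegfa, the vascular growth factor gene, and Adm were the 2 higher among 10 secreted and vascular genes, at log2 ratios of 1.17 and 0.83, and Edn1, the endothelin gene, was lower at −0.72. Ddit4, an inhibitor of mTORC1 signalling, was the 1 higher among 17 genes of iron, haem and other functions, at 2.34.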

How the data were processed

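Poly(A) RNA of 4 myotube cultures was sequenced, 1 library per group. The authors deposited estimated counts, FPKM and TPM per gene for all 4 libraries in 1 table. HISAT2 and mm10 are named per the submitters' processing notes. Not given in the sources used here were the counting program, annotation release and strand setting. Between joint and single tables, TPM disagreed beyond 0.001 for 1 to 3 genes per library and for 0 members.

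Groups follow sample titles. The members, gene lists, 1.5-fold threshold and comparisons were chosen with earlier results of these data known. Named genes are all HIF subunits and turnover genes, all members past 1.5-fold in any comparison, and the highest and lowest of each role and list by a treatment ratio. Promoters are printed only for members past 2-fold between the pairs. The main value was log2 of TPM plus 1, for genes reaching TPM 1 in any compared library. CPM used totals scaled by TMM (edgeR 4.0.16, R 4.3.3), with size factors from DESeq2 1.42.0 as an alternative. Count intervals were checked on simulated data. With 1 library per group no test was run. Python 3.11.15, numpy 2.4.6, pandas 2.3.3, scipy 1.17.1 and matplotlib 3.10.9 were used. Promoters were matched by gene ID. The number of lower genes between the pairs in the secreted and vascular list is not reported here.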

Additional observations from a re-analysis of the deposited data

How the results depend on the processing

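No paired analysis was possible because each group held 1 library and the labels give no replicate numbers. Alternatives were pseudocounts of 0.1 and 5, no filter, a TPM of at least 5, FPKM, and CPM on TMM totals, DESeq2 size factors or plain totals. Between the pairs, 16 members stayed at least 1.5-fold higher under each, and the median moved from 0.71 to 0.83 at a pseudocount of 0.1. Leaving out each library in turn, an alternative chosen after seeing the data, gave 16 to 20 members higher, 0 to 2 lower and a median from 0.66 to 0.85. The 2 lower members appeared without the EPS-control-titled library, and 1 without the clenbuterol control. In the EPS comparison the number lower was 5, but 2 at a pseudocount of 5 and 3 in FPKM. Hilpda and Ndrg1 were called under every alternative. Selenbp1 was lost at a pseudocount of 5, in FPKM and at a TPM of at least 5, Ankrd37 at a pseudocount of 5, and Ppfia4 at a pseudocount of 5, in FPKM and under each CPM scaling. With clenbuterol the number higher was 2, but 1 in FPKM and 1 with CPM on plain totals, where Bhlhe40 was lost. Over all genes the counts past 1.5-fold depended on the pseudocount: with clenbuterol 347 higher and 265 lower at 1, 523 and 492 at 0.1, and 119 and 35 at 5. For EPS they were 324 and 586, 543 and 872, and 89 and 175, and between the pairs 262 and 206, 408 and 339, and 105 and 90. Leaving out a library gave 431 to 622 genes higher and 359 to 594 lower between the pairs, and the remaining alternatives gave counts between those of the 0.1 and 5 pseudocounts. With 1 library per group, the spread between cultures is unknown for every value.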

Other observations

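Genes that share a symbol stem with a member, from 16 stems and in no list above, were read in the same way after the members' values were known. They are called relatives here, although a shared symbol does not show that genes are related by descent. Of 29 measured relatives, 1 was at least 1.5-fold higher in both EPS-pair libraries and 1 lower, against 1.84% and 1.45% of all genes. Without any minimum size, 12 stood above with no overlap, 10 below and 7 overlapped, against 34.7% of all genes above and 25.1% below. Car6, among those above, and Car1, among those below, reached a TPM of 1 only through the pair where they were higher. The median difference of pair means of the 29 relatives was 0.01 on the log2 scale. P4ha3, another α subunit gene of collagen prolyl 4-hydroxylase, was the higher one, at 14.3 and 16.6 TPM in the EPS-titled and EPS-control-titled libraries against 7.74 and 7.82 with clenbuterol and in its control. Car2, the cytosolic carbonic anhydrase gene, was the lower one, at 3.60 and 2.69 TPM against 7.94 and 9.19, the opposite side from Car9 and Car12.

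Within single symbol stems some relatives lay on the side of the member and others did not. Plod3, Loxl3, Loxl4, Ak6, Ndrg2 and Ndrg3 were higher in the EPS pair with no overlap, by 1.15-fold (Ndrg3) to 1.36-fold (Plod3) in TPM plus 1. Car6, with the limit on its filter given above, was 1.46-fold higher, on 122 and 34 counts against 18 and 16. Loxl1 was level at 157, 159.6, 165 and 165 TPM in the EPS-titled, EPS-control-titled, clenbuterol and clenbuterol control libraries, where Lox differed. Ndrg4 lay opposite to Ndrg1, at 145 and 209 TPM against 331 and 303. Ero1lb, the second endoplasmic reticulum oxidase gene, overlapped between the pairs at 5.98, 6.40, 4.92 and 6.74 TPM, beside a gap of 5.08-fold in CPM for Ero1l. Bnip1 and Bnip2 were matched to Bnip3 by symbol stem alone. Bnip1 overlapped between the pairs and Bnip2 was 1.02-fold lower in TPM plus 1. Ak1, the abundant muscle adenylate kinase gene, was at 252 and 299 TPM against 339 and 342.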
